A study of Arabidopsis thaliana with 4 samples.

Results

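A group of 33 probe sets gave signals at least 3-fold lower in seedlings of the transgenic GR-REV line than in wild type seedlings, whether or not dexamethasone was added. They were taken from 22746 probe sets by one rule. The higher of the 2 GR-REV signals had to lie at least 3-fold below the lower of the 2 wild type signals. The GR-REV dexamethasone and mock arrays also had to lie within 1 of each other on the log2 scale. Before taking log2, signals under 91.35, the 40th percentile of all signals, were set to that floor, since low signals are mostly background. The thresholds were met by 38 probe sets, and those of AOP3, AT3G48640, AT2G43590, AT1G13470 and BGLU15 were left out by name. CML38 and the chromosome 3 stretch from AT3G16330 to AT3G19590 were excepted in the same way but held no further probe set. Of the 33 members, 19 have 1 gene listed in the annotation, 2 have several and 12 have none.

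Seedlings of Arabidopsis thaliana were grown for 10 days in liquid culture and harvested 1 h after treatment, with 1 flask and 1 array per group. The wild type was the accession Landsberg erecta (Ler), and GR-REV is described as a transgenic Ler line; the labels report no test of its genetic background. The transgene and any other difference from wild type cannot be told apart in this design. GR-REV carries the HD-ZIP III transcription factor REVOLUTA, fused at its amino terminus to the glucocorticoid receptor domain, altered so that microRNAs no longer recognise its transcript, and driven by the constitutive viral CaMV35S promoter. Each genotype was given 50 µg/ml dexamethasone in 0.1% ethanol in one flask and 0.1% ethanol alone (mock) in the other. Each flask was sown with 100 seeds, so an array reads pooled seedlings, and the labels do not give the number of transgene insertions or of independent lines. For both GR-REV arrays the source names give the opposite treatment to the titles and treatment protocols, which were followed here. The choice of the members does not depend on which is right, but each difference between the 2 GR-REV arrays would change sign. Genotype differences within 1 treatment would then also pair other arrays.

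REVOLUTA belongs to a small family of plant transcription factors that specify the upper side of leaves, the vascular pattern and shoot meristems. A fusion to the glucocorticoid receptor domain is held outside the nucleus until a steroid such as dexamethasone binds it, so the study's question about direct targets rests on the hormone. The members described here answer another comparison, line against line, which was present without the hormone. Their lower signal in GR-REV is what selected them, so it is given as a description and not tested.

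On each array 58.9% to 62.9% of probe sets lay above the floor. Of 9 green tissue markers 1 could be matched to a probe set, and of 11 root markers 2. RCA, the Rubisco activase gene, had signals of 20706 and 28804 in wild type mock and dexamethasone and of 18575 and 18365 in GR-REV. The root β-glucosidase gene PYK10 gave 14190 and 10171 in wild type, with 16495 and 15758 in GR-REV, and the root hair gene EXPA7 was under the floor on all 4 arrays. Of 7 stomatal lineage markers, 3 could be matched to a probe set. Their summed signal was 423 and 512 in wild type against 217 and 245 in GR-REV, with no floor applied and signals under it included. Within that list FAMA had a genotype difference of -0.58 ± 0.23 (SE, 2 against 2 arrays) on the log2 scale, which did not pass the limma test used below (adjusted p = 0.297). SPCH was at the floor in both GR-REV arrays, and its difference from that floor, -0.71 ± 0.35, did not pass either (adjusted p = 0.404, limma). MUTE was at the floor on all arrays, so it had no difference once the floor was applied. The part of stomatal cells in the members' lower signals was not tested. In whole seedlings, fewer cells of a type and less RNA per cell cannot be told apart. None of the listed epidermis, vascular or seed storage markers could be matched to a probe set. The annotation listed no gene for 8730 probe sets, so an unmatched gene is not shown to be absent from the array.

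The thresholds were reached by 0.167% of all probe sets in this direction, and the 33 members are 0.145%. The mirrored rule, with GR-REV at least 3-fold higher, was met by 89 probe sets, or 0.391%. All 33 members were above the floor on both wild type arrays, as the rule requires. In GR-REV, 17 were above the floor on both arrays, 5 on one array and 11 on neither. A fold or difference measured from an array at the floor is a bound, written "at least" for single members. Ranges and medians over the members take such bounds at their value. The fold between the nearest arrays of the 2 genotypes ran from 3.02 to 172 with a median of 3.83, and 15 members exceeded 4-fold.

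**Figure D1:**
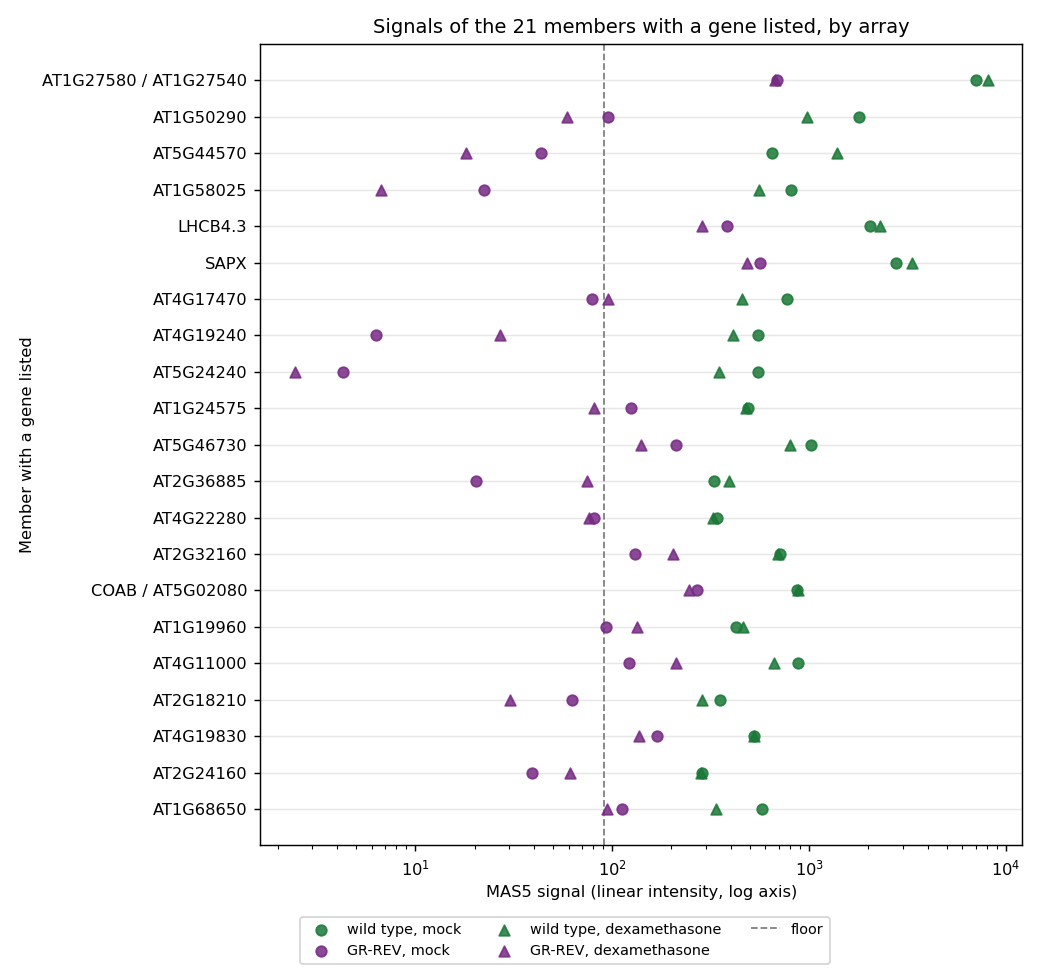
MAS5 signal (x axis, linear intensity on a log axis) of the 21 members with 1 or several genes listed, 1 point per array; green is wild type and purple GR-REV, circles are mock and triangles dexamethasone, and the dashed line is the floor of 91.35. In each row both purple points lie left of both green points by at least 3-fold once signals under the floor are set to it, as the rule requires, and 8 of the 19 single-gene members have both purple points left of the floor.

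Among members with a known role in the chloroplast, LHCB4.3 encodes a form of CP29, a minor light-harvesting antenna protein of photosystem II. Its signal was 2031 in wild type mock and 2282 in wild type dexamethasone, and 381 and 285 in GR-REV mock and dexamethasone. Both GR-REV arrays were low and the genotypes were 5.33-fold apart at their nearest arrays. SAPX encodes the stromal ascorbate peroxidase, which uses ascorbate to remove hydrogen peroxide. It had signals of 2767 and 3314 in wild type mock and dexamethasone, against 565 and 484 in GR-REV, a distance of 4.90-fold between the nearest arrays. The mean differences, GR-REV minus wild type, were -2.71 ± 0.22 (SE, 2 against 2 arrays) for LHCB4.3 and -2.53 ± 0.17 for SAPX on the log2 scale. Both genes were well above the floor on every array, and among the 19 single-gene members they alone moved by less than their spread when the floor was raised to the 60th percentile. AT4G19830, a gene of the FKBP-type peptidyl-prolyl isomerases that help proteins fold, had 522 and 524 in wild type mock and dexamethasone and 168 and 136 in GR-REV. That is a mean difference of -1.79 ± 0.15 on the log2 scale, close to the threshold of the rule.

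The other listed genes of these pathways that could be matched to a probe set had smaller genotype differences than LHCB4.3 and SAPX. The rule chose LHCB4.3 and SAPX for a large difference, so this contrast is a description and no test. Of 21 antenna genes, 3 could be matched to a probe set, and apart from LHCB4.3 these were its own paralogues LHCB4.1 and LHCB4.2. LHCB4.1 had signals of 18743 and 22897 in wild type mock and dexamethasone and 18540.0 and 17151 in GR-REV, a genotype difference of -0.22 ± 0.24 that did not pass in limma (adjusted p = 0.727). LHCB4.2 had 7394 and 6909 in wild type against 11338 and 12227 in GR-REV, a difference of 0.72 ± 0.19 in the opposite direction to LHCB4.3, which did not pass in limma (adjusted p = 0.143). Both GR-REV arrays lay below both wild type arrays for LHCB4.1, narrowly, and above both for LHCB4.2.

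Of 27 genes of the ascorbate-glutathione cycle and of superoxide and peroxide scavenging, 5 could be matched. TAPX, the thylakoid ascorbate peroxidase and closest partner of SAPX, had 1203 and 1235 in wild type mock and dexamethasone and 910.2 and 1178 in GR-REV, a genotype difference of -0.24 ± 0.19. The difference was 0.40 ± 0.20 for MDAR2, a monodehydroascorbate reductase gene, 0.40 ± 0.23 for the cytosolic glutathione reductase gene GR1, and -0.16 ± 0.18 for the plastid glutathione reductase gene GR2. The limma genotype test called 0.492% of 14034 probe sets lower and 1.28% higher in GR-REV, at an adjusted p under 0.05. None of the 2 tested antenna and 4 tested scavenging genes that are not members was called in either direction in limma, with 1 and 0 at an unadjusted p under 0.05. Their median differences were 0.25 and 0.12, against -0.02 for all probe sets tested.

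**Figure D2:**
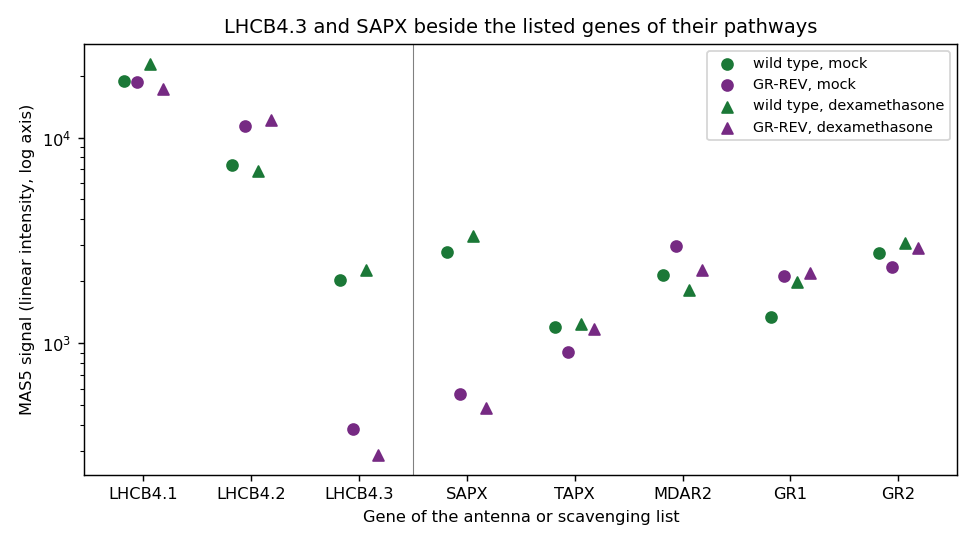
MAS5 signal (y axis, linear intensity on a log axis) on each of the 4 arrays for the matched genes of the antenna list, left of the grey line, and of the scavenging list, right of it; colours and shapes give genotype and treatment, with 1 array each. LHCB4.3 and SAPX are the members, with GR-REV signals of 285 to 565, and the other 6 genes had genotype differences between -0.24 and 0.72 on the log2 scale.

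Members linked to signalling or regulation included genes whose GR-REV signals were under the floor. AT5G24240 belongs to the phosphatidylinositol 4-kinase family. It had signals of 552 and 350.1 in wild type mock and dexamethasone and GR-REV had 4.28 and 2.44, a distance of at least 3.83-fold. AT1G58025 encodes a bromodomain protein, of a kind that binds acetylated histones. Its signals of 808 and 558 in wild type faced 22.4 and 6.73 in GR-REV, a distance of at least 6.11-fold. Both GR-REV arrays lay under the floor for both genes, so the size of the difference is not known beyond the bound.

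AT4G11000 encodes an ankyrin repeat protein, and other members of that family act at membranes in defence. Its signals were 873 and 659 in wild type mock and dexamethasone and 122 and 211 in GR-REV. With treatments as titled, it was 7.14-fold lower in the mock arrays and 3.13-fold lower in the dexamethasone arrays. Its mean difference was -2.24 ± 0.44 on the log2 scale. The difference between the GR-REV arrays, 0.79, was the widest among the single-gene members. AT4G22280, an F-box gene of a family that marks proteins for degradation, had 342 and 326 in wild type against 80.6 and 76.0 in GR-REV, a distance of at least 3.57-fold. Its 2 arrays within each genotype were close, with a wild type SD of 0.05 on the log2 scale.

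The fixed list of salicylic acid and immune genes could be read at 1 of its 18 members, SAG101, a lipase-like partner in immune signalling. Its signals were 337 and 340 in wild type mock and dexamethasone and 269 and 302 in GR-REV, a genotype difference of -0.25 ± 0.22 that did not pass in limma (adjusted p = 0.658). Of 16 HD-ZIP III genes and reported REVOLUTA targets, 3 were matched and none was called in limma or reached an unadjusted p under 0.05. The genotype differences were 0.18 ± 0.25 for PHV, 0.53 ± 0.46 for HAT2 and 0.48 ± 0.45 for WRKY53. These pool the treatments, so they do not show a difference between the arrays of 1 genotype. HAT2 had 450 and 463 in wild type mock and dexamethasone and 405 and 1074 in GR-REV, 1.41 apart on the log2 scale within GR-REV. WRKY53 had 632 and 272 in wild type against 466 and 713 in GR-REV, and PHV 342 and 276 against 314 and 384. With 1 array per group these treatment differences were not tested. The transgene's own transcript was not analysed here.

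Enzyme and membrane genes formed another set. AT4G17470 is a gene of the α/β-hydrolases related to palmitoyl-protein thioesterases, which remove fatty acids from proteins. It had 771 and 456 in wild type mock and dexamethasone and 78.7 and 94.9 in GR-REV, 4.80-fold apart at the nearest arrays. AT1G68650, of a family of membrane proteins linked to manganese and calcium transport in other organisms such as yeast, had 573 and 338 in wild type against 112 and 94.0 in GR-REV. With 3.02-fold between its nearest arrays it lay just inside the threshold. AT5G46730, which encodes a glycine-rich protein, had 1021 and 797 in wild type against 211 and 139.8 in GR-REV, a mean difference of -2.39 ± 0.35 on the log2 scale. AT2G32160, a methyltransferase family gene, had 708 and 694 in wild type against 131 and 203 in GR-REV, 3.43-fold apart at the nearest arrays. One transcribed pseudogene, AT2G24160, was among the members, with 285 and 282 in wild type against 39.0 and 61.3 in GR-REV.

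The 2 probe sets with several genes listed cannot assign their signal to one of them. The probe set of AT1G27580 and AT1G27540 had the largest distance among members with a gene listed, with 7025 and 8082 in wild type mock and dexamethasone and 684 and 668 in GR-REV. Its nearest arrays were 10.3-fold apart. The probe set of COAB, a gene of coenzyme A synthesis, and of its relative AT5G02080 had 868 and 876 in wild type against 271 and 244 in GR-REV. The wild type arrays were close in both, with an SD of at most 0.14 on the log2 scale.

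For the other single-gene members no role is given here. The largest distance among them was that of AT1G50290, with signals of 1782 and 972 in wild type mock and dexamethasone and 95.6 and 59.0 in GR-REV. Its nearest arrays were 10.2-fold apart. AT5G44570 had 647 and 1386 in wild type but 43.4 and 18.1 in GR-REV, so it lay at least 7.09-fold lower there. AT4G19240 was at least 4.49-fold lower, with 551 and 410 in wild type against 6.28 and 27.0 in GR-REV. AT1G24575 was 3.83-fold lower at the nearest arrays, AT2G36885 at least 3.59-fold, AT1G19960 3.17-fold and AT2G18210 at least 3.13-fold.

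The 12 members with no gene listed had distances of 3.18-fold to 172-fold between the nearest arrays. The probe set 263174_at had signals of 19868 and 24448 in wild type mock and dexamethasone and 80.2 and 115.7 in GR-REV, 172-fold apart at the nearest arrays. This was the widest distance among the members, and one of its GR-REV arrays was at the floor. A second, 248377_at, had 1224 and 1493 in wild type but 4.17 and 4.21 in GR-REV, a distance of at least 13.4-fold. The median distance of the 12 was 4.44-fold, and 3 of them were at the floor on both GR-REV arrays.

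Membership close to the threshold is a matter of small differences. Just inside lay AT1G68650 at 3.02-fold and AT2G24160 at 3.08-fold or more. Just outside lay AT1G12330 at 2.99-fold, AT4G31570 at 2.98-fold or more, AT3G53960 at 2.97-fold, AT2G41380 at 2.88-fold and AT2G35820 at 2.80-fold. AT5G55450, a gene of the lipid transfer protein family, met the genotype threshold with 5736 and 10945 in wild type mock and dexamethasone and 829.7 and 1847 in GR-REV, but its GR-REV arrays differed by more than the bound. Moving the floor to the 25th percentile gave 52 probe sets that met the rule, and moving it to the 60th gave 12, all of them among the 33.

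Because mock and dexamethasone arrays share no array, the genotype difference can be read once in each treatment, although the rule used both. In the mock arrays the members were 3.11 to 217-fold lower in GR-REV, with a median of 5.33, and in the dexamethasone arrays 3.08 to 211-fold lower, with a median of 4.49. The 217-fold and the 3.08-fold are bounds, since that GR-REV array was at the floor. Among the 17 members above the floor on all arrays, the mock distance was the larger in 8 and the dexamethasone distance in 9. Across these, both differences had r = 0.477 and rho = 0.287, as a description over probe sets that share the same 4 arrays and were cut at the same threshold. AT4G11000 was 7.14-fold lower in mock and 3.13-fold in dexamethasone, whereas AT2G24160 was at least 3.12-fold and at least 3.08-fold lower. If the source names are right, each GR-REV array belongs with the other wild type array, and these folds, counts and correlations would differ.

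**Figure D3:**
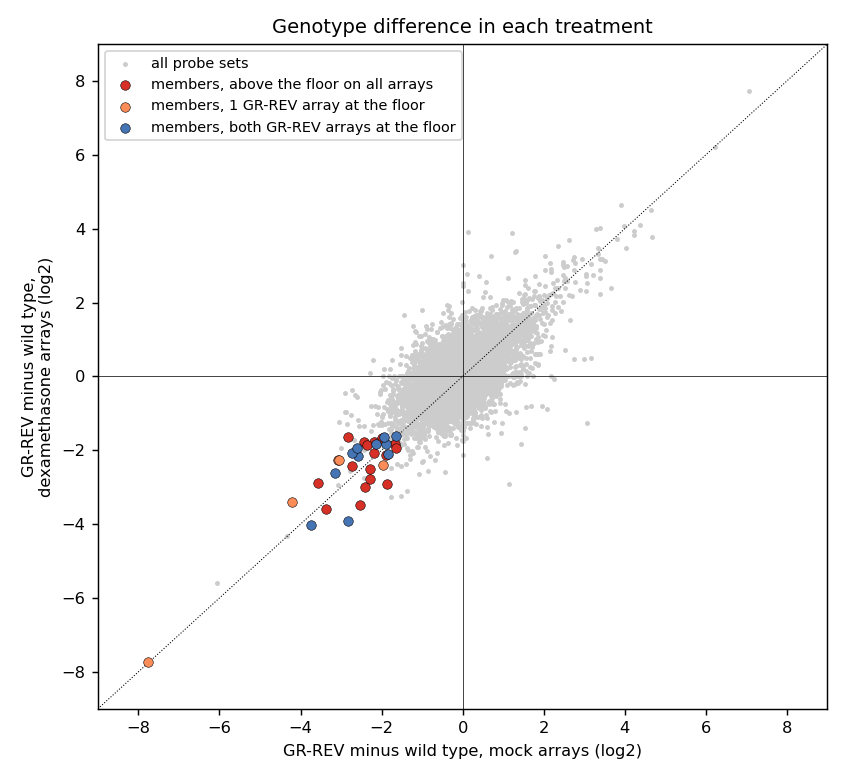
Difference GR-REV minus wild type (log2) between mock arrays (x axis) and between dexamethasone arrays (y axis) for all 22746 probe sets (grey) and the 33 members (coloured by how many GR-REV arrays were at the floor), with 1 array per group. Treatments are those of the titles. Members lie in the lower left corner because the rule placed them there, from -1.64 to -7.77 in mock and from -1.62 to -7.72 in dexamethasone, where -7.77 and -1.62 are bounds set by the floor.

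Treatment differences within wild type had no bound of their own in the rule, and with 1 array per group they have no test. The rule takes the lower wild type signal, however, so a gene with widely separated wild type arrays can fail on that array. AT3G53960, just outside at 2.97-fold, had wild type signals of 645 in mock and 300 in dexamethasone and was 6.38-fold lower in mock. Values of the members beside other probe sets therefore describe a group shaped by the rule. The median of the members was -0.07 on the log2 scale, dexamethasone minus mock, beside -0.06 for the 13101 probe sets above the floor on both wild type arrays. The median size of the difference, regardless of sign, was 0.29 in the members and 0.27 in those probe sets. After division of each array by its median both medians turned positive, 0.14 for the members and 0.15 for all.

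One member, AT5G44570, was at least 2-fold higher in wild type dexamethasone than in wild type mock, by 2.14-fold, where 0.824% of those probe sets were. None of the 33 was at least 2-fold lower, where 2.36% of those probe sets were. The nearest to it was AT1G50290 at -0.875, followed by a member without a listed gene at -0.834, AT1G68650 at -0.763 and AT4G17470 at -0.759 on the log2 scale. In 25 of the 33 members the wild type arrays differed by less than 0.5. These counts too are shaped by the rule's use of the lower wild type signal.

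Within GR-REV the rule allowed at most 1 on the log2 scale. The members lay between -0.75 and 0.79, with 13 below 0, 9 above 0 and 11 at the floor on both arrays. Higher in the array titled GR-REV dexamethasone were AT4G11000 at 0.79, AT2G32160 at 0.63 and AT1G19960 at 0.53. Lower there were AT5G46730 at -0.59 and LHCB4.3 at -0.42, and AT1G24575, at the floor in that array, had a bound of -0.45. These signs turn if the source names are right.

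**Figure D4:**
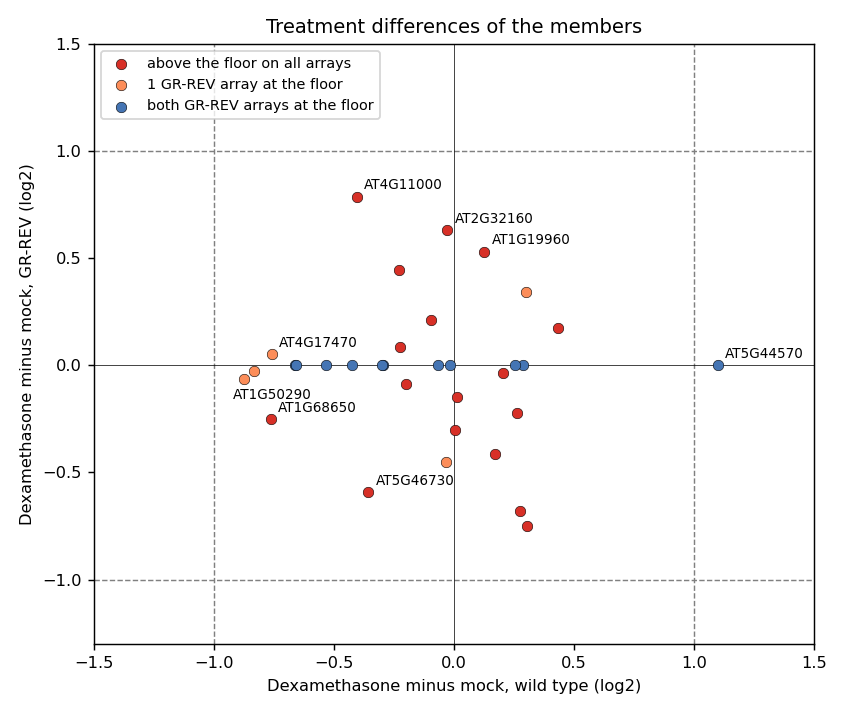
Dexamethasone minus mock difference on the log2 scale in wild type (x axis) and GR-REV (y axis) for the 33 members, 1 point each and 1 array per group; dashed lines mark 2-fold, which on the y axis is the bound of the rule. AT5G44570 is the single point past 2-fold in wild type, at 2.14-fold, and the 11 blue points lie at 0 on the y axis because both GR-REV arrays were at the floor.

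On the chromosomes the 19 single-gene members were spread over 4 of the 5, with 5 on chromosome 1, 5 on chromosome 2, 6 on chromosome 4 and 3 on chromosome 5. Of all 13367 single-gene probe sets on nuclear chromosomes, 25.8%, 16.5%, 14.7% and 22.5% lie on these. None of these 19 members was on chromosome 3, which holds 20.5% of those probe sets. AT3G48640, on that chromosome, met the thresholds but was left out by name, and the excepted stretch there held no further probe set. These counts lack all 5 probe sets left out by name. They also lack the members with several genes or none listed, whose chromosome was not read. The closest of the 19, AT4G19240 and AT4G19830, had 75 annotated genes between them. The median gene length was 1797 bp in the 19 members and 2122 bp in all. A symbol other than the locus name was absent for 17 of the 19, or 89.5%, beside 88.9% of all. Both shares cover only probe sets with 1 gene listed in the annotation.

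The rule did not use the genes beside the members, so their genotype difference could be tested. For each single-gene member the nearest tested gene on either side was taken, 38 in all, with 0 to 18 annotated genes in between. Their median difference was -0.13 on the log2 scale, with quartiles of -0.33 and 0.26, beside -0.02, -0.27 and 0.23 for all 14034 probe sets tested. In limma no neighbour was called lower and 1, or 2.63%, was called higher, beside 0.492% and 1.28% of all probe sets tested. With so low a share, 38 neighbours would hold few calls in any case. At an unadjusted p under 0.05 were 9 of the 38, or 23.7%, beside 16.4% of all probe sets tested. In 18 of 19 members both neighbours were less than 2-fold lower in GR-REV.

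The neighbour called was AT5G44580, which follows AT5G44570 among the tested genes. Its signals were 862 and 426 in wild type mock and dexamethasone and 5296 and 5533 in GR-REV, higher by 3.16 ± 0.34 on the log2 scale (adjusted p = 0.0223, limma, higher in both GR-REV arrays). With no filter on low values this call was lost (adjusted p = 0.239). So the pair AT5G44570 and AT5G44580 had large differences of opposite sign, with 4 annotated genes between them.

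A second pair had the same sign. AT2G32150, which encodes a hydrolase of the haloacid dehalogenase type and lies directly before AT2G32160, had 4617 and 2392 in wild type against 642 and 974 in GR-REV. Its difference of -2.07 ± 0.37 did not pass in limma (adjusted p = 0.0637), and ranged over the alternatives from an adjusted p of 0.00704 without the GR-REV dexamethasone array to 0.409 with no filter. AT2G32170, which directly follows AT2G32160 and belongs to the same methyltransferase family, had 783 and 731 in wild type against 1199.6 and 1101 in GR-REV. Its difference was 0.60 ± 0.17 (adjusted p = 0.165, limma), with both GR-REV arrays above both wild type arrays.

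Around LHCB4.3, AT2G40020 had -0.84 ± 0.32 and the directly following AT2G40110 had 0.31 ± 0.33. The nearest tested genes around SAPX, AT4G08330 and AT4G08460, had 0.36 ± 0.25 and 0.13 ± 0.23. Beside AT5G46730, AT5G46710 had -0.94 ± 0.26 and the ubiquitin protease gene UBP21 -0.42 ± 0.23. None of these passed in limma, with adjusted p between 0.168 and 0.841.

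**Figure D5:**
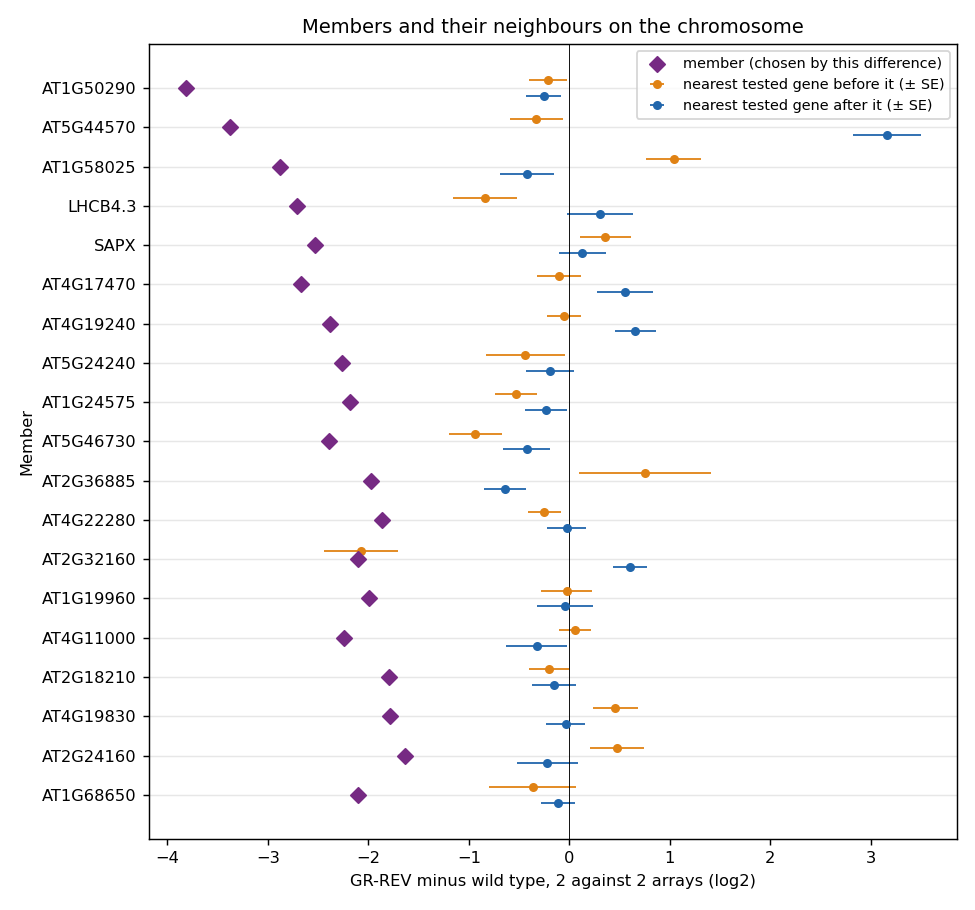
Difference GR-REV minus wild type on the log2 scale (x axis, 2 against 2 arrays) for the 19 single-gene members (purple diamonds, chosen by this difference) and for the nearest tested gene before (orange) and after (blue) each on the chromosome, with bars of ± 1 SE from limma. Most neighbours lie near 0, 27 of 38 within 0.5; AT5G44580, after AT5G44570, stands at 3.16 and AT2G32150, before AT2G32160, at -2.07.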

How the data were processed

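Total RNA of 4 flasks was hybridized to 1 Affymetrix ATH1 array each. The deposited values are intensities on a linear scale, 1 signal per probe set, made by the authors with MAS5 (version not stated), per the submitters' processing notes. Their 2% trimmed means were 500.05 to 500.06, so no further scaling was applied. The 4 arrays share a recorded hybridization time but were each in a fluidics module of their own, per the file headers; module cannot be told apart from group. Of 22810 probe sets, 64 controls were left out. GEO's platform annotation gave each probe set's genes, and RefSeq (TAIR10.1) gave current names and gene order: 13436 of 13513 single-gene probe sets matched, and 503 had several genes and 8730 none listed.

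Signals below the floor were set to it before log2. The genotype test used lmFit and eBayes (trend) of limma 3.58.1, under R 4.3.3, on 2 against 2 arrays with 2 residual degrees of freedom. It covered 14034 probe sets that exceeded the floor on 2 or more arrays, with Benjamini-Hochberg adjustment over all of them and a threshold of 0.05. All 33 members passed that filter through wild type, so limma results are not used for them, and SEs printed for members are those of the 4 log2 values. The spread is that between the mock and dexamethasone flask of each genotype, so p-values rest on no replicate flasks. The number of arrays limits the precision. The members, the gene lists and the choice to look at neighbours were made with earlier results of these data known. Named were all members with 1 gene, 2 without a gene, the 5 single-gene probe sets nearest outside the threshold, neighbours and genes of the fixed lists: antenna, scavenging, salicylic acid and immune, HD-ZIP III and targets, and markers of green tissue, root, stomatal lineage, epidermis, vasculature and seed storage. The several-gene probe sets, AT5G55450 and list genes that were neither called nor paralogues of a member were named after their values were seen. Floor, scaling, thresholds, filter, treatment term and left-out arrays were varied.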

Additional observations from a re-analysis of the deposited data

How the results depend on the processing

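The count of 33 members became 52 with a floor at the 25th percentile (32 of the 33 among them), 12 with one at the 60th, 17 with the floor value added instead of a floor (15 shared), 128 at 2-fold and 15 at 4-fold; it was 31 after quantile normalization, 29 after division by the median and 34 with no bound on the GR-REV difference. Leaving out 1 array asks less of the rule and gave 46 (wild type mock) to 95 (wild type dexamethasone), with 77 without GR-REV mock and 68 without GR-REV dexamethasone. The 19 single-gene members kept their sign under all 5 floor and scaling alternatives, between -4.56 and -0.05 on the log2 scale. The rule set both their GR-REV arrays at least 3-fold below both wild type arrays. A changed or added floor could therefore not turn the sign, nor could a small scaling shift, so the kept sign is no check. Of the 19, 17 moved by more than their spread with the floor at the 60th percentile, 15 with the floor value added and 8 at the 25th percentile. With division by the median 1 moved, and after quantile normalization 0. The wild type treatment median was 0.143 after division by the median. In limma, 69 probe sets lower and 180 higher became 136 and 282 with the floor value added, 125 and 302 with division by the median, 15 and 15 without the filter and 429 and 568 with treatment as a term. Leaving out 1 array gave 17 to 170 lower and 61 to 198 higher, the fewest lower without wild type mock and the fewest higher without wild type dexamethasone, with 20 lower without wild type dexamethasone, 97 higher without wild type mock, and 170 and 125 lower without GR-REV mock and GR-REV dexamethasone; a lone array is then assumed to vary like the other genotype. The median genotype difference of all probe sets stayed between -0.055 and 0.027. The neighbours' alternatives were added after seeing the data: 1 was called lower with the floor value added, 1 with division by the median and 2 with treatment as a term, 0 to 1 with an array left out, while 1 to 2 were called higher with an array left out and 0 without the filter. AT2G32150 passed with the floor value added, division by the median, treatment as a term, and without GR-REV mock, wild type dexamethasone or GR-REV dexamethasone. Members apart, no gene of the fixed lists was called in limma under the 5 floor and scaling alternatives. The cause of these changes was not tested. Each group holds 1 array, so no replicate numbers are shared and no pairing by replicate was possible. The genotypes were paired within treatment only through the treatment term above, with treatments as the titles give them. The main limma test left that term out.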
